A study of Drosophila melanogaster with 2 samples.

Results

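The binding of the chromatin protein HmgZ was described at 7 Drosophila melanogaster genes that encode inducible regulators of transcription and stress signalling: cbt, kay, Jra, puc, Atf3, Hr38 and sr. The list was chosen by gene symbol, with the very strong peak at cbt already known, so the signal of that peak is given as a description and supports nothing further. Every peak summit in the body of a gene plus 5 kb on each side was taken from the deposited set that passed the irreproducible discovery rate (IDR) threshold. This gave 25 of the 6844 summits of the set, in the windows of 7 of 13945 protein-coding genes. They fell at 5 of the 7 genes, with none at Hr38 or sr.

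The data are chromatin immunoprecipitation followed by sequencing (ChIP-seq) from whole embryos of mixed sex, aged 4 to 24 h, of a transgenic line that expresses HmgZ with eGFP, a green fluorescent tag, on its C-terminal end. There was 1 group, with biological replicates 1 and 3, and every embryo carried the tagged protein. The submitters' free text describes both samples as inputs, but the antibody, the assay and the presence of peak lists are those of an HmgZ ChIP, and they were treated as such. Peaks of both replicates were called with the same control alignment. A ChIP of embryos without the tag was not analysed here. Whole embryos mix all tissues, so a peak can come from any of them.

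Immediate-early genes are transcribed within minutes of a stimulus without new protein synthesis, and many encode transcription factors that then switch on later genes. In Drosophila, Jun N-terminal kinase (JNK) signalling acts through AP-1, the dimer of Jun and Fos, during dorsal closure of the embryo, wound repair and the response to stress. HmgZ is a high mobility group (HMG) protein of the kind with an HMG box, which binds the minor groove of DNA and bends it with little sequence preference. Jra and kay encode the fly Jun and Fos, puc the JNK phosphatase that feeds back on the pathway, and Atf3 a basic leucine zipper (bZIP) factor that can pair with Jun. The gene cbt encodes a zinc finger factor of the Krüppel-like (KLF) family, Hr38 the NR4A nuclear receptor and sr the early growth response (EGR) factor needed in tendon cells.

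The sequences on which the results turn are the 201 bases centred on 5 summits, on dm6 coordinates and each read 5′ to 3′ on the strand of its gene, from the RefSeq copy of the genome. They are shown because they hold the strongest peaks of cbt, kay and Atf3, the cbt peak closest to its transcription start site (TSS), and the AP-1 consensus found at a summit. Capitals mark matches to the motifs searched other than GATAA: BEAF-32 (CGATA) and TATA box (TATAAA) in the first, GAGA factor (GAGAG) in the second, TATA box and BEAF-32 in overlap in the third, none in the fourth, and TATA box and AP-1 (TGANTCA) in the fifth.
cbt strongest peak, chr2L:480989-481189, minus strand: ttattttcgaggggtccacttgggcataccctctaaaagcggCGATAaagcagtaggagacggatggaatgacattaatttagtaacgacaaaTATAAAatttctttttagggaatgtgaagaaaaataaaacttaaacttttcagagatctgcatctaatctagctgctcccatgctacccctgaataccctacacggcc
cbt peak nearest to the TSS, chr2L:479952-480152, minus strand: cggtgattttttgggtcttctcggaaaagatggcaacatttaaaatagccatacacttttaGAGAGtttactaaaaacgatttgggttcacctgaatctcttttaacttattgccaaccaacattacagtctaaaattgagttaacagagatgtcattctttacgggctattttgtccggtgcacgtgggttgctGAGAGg
Atf3 promoter peak, chrX:1275404-1275604, minus strand: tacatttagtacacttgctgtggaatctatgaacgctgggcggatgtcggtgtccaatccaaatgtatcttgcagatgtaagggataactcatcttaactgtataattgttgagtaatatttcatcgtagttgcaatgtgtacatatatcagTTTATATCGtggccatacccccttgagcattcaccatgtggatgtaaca
kay strongest intronic peak, chr3R:29773865-29774065, plus strand: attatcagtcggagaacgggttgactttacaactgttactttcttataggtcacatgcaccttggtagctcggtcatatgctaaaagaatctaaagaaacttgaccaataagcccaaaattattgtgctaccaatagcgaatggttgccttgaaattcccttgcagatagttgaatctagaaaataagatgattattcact
puc intronic peak with the AP-1 match, chr3R:8119829-8120029, plus strand: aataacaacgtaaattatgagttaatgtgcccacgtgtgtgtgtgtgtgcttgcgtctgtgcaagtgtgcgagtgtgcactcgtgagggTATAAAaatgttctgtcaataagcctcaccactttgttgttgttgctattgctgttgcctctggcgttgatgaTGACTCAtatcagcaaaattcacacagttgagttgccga

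For each summit the deposited signal was read in each replicate list from the strongest region with a summit within 100 bp, and divided by the median signal of that list. The resulting signal ratio is 1 for the median region of a replicate. Of the 25 summits, 4 lay in a promoter of the gene itself, meaning within 250 bp of one of its TSSs. The others were 5 in the promoter of another gene, 1 in an exon, 8 in an intron and 7 outside the gene body, called distal. Both replicates held a matching region for 23 of the 25. The 2 strongest were at cbt and Atf3.

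**Figure D1:**
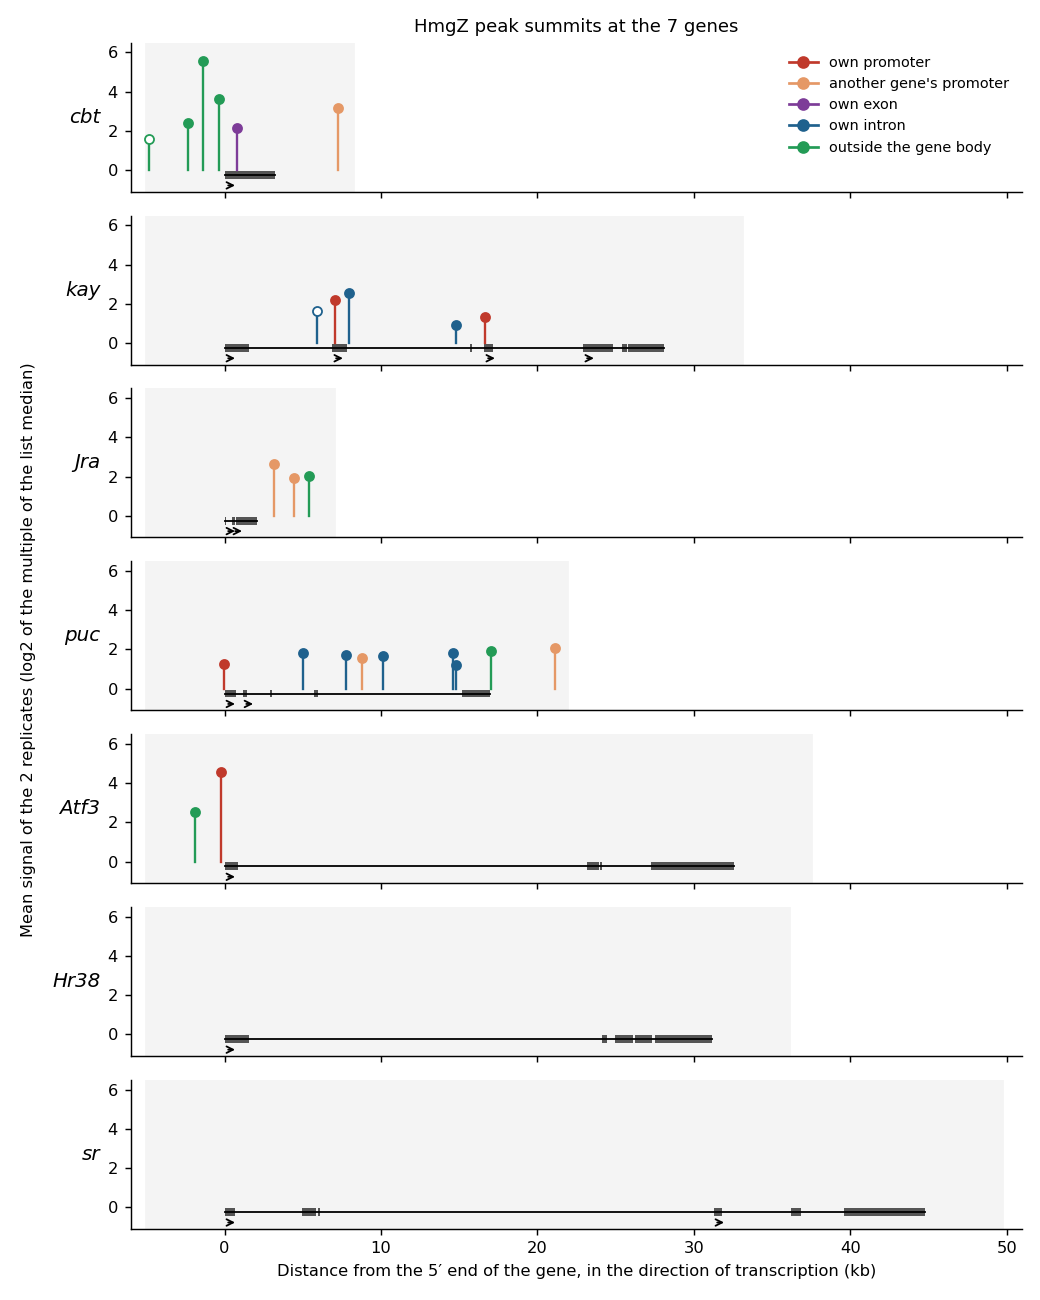
Positions of the 25 thresholded HmgZ summits at the 7 genes, as distance in kb from the 5′ end of each gene in the direction of transcription, with height giving the log2 of the mean signal ratio of the 2 replicates. Grey shading is the window searched, dark boxes are exons, arrows are TSSs, and open circles have a value in 1 replicate only; the tallest stems stand upstream of cbt and at the Atf3 promoter, and Hr38 and sr have none.

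The gene cbt (FBgn0043364, chromosome 2L, 476446 to 479688, minus strand) had 6 summits in a window of 13.2 kb. The strongest lay 1401 bp upstream of its TSS, in a region of 474 bp from 480866 to 481339. Its signal ratio was 40.6 in replicate 1, where it was the region of rank 2 of 30000, and 52.9 in replicate 3, where its rank was 4, giving 46.8 ± 8.64 (SD, n = 2). It had rank 4 in the pooled list and in the thresholded set. Its summit shifted from the pooled one by 6 bp in replicate 1 and by 12 bp in the opposite direction in replicate 3.

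The next peak of cbt by signal was 364 bp upstream of the TSS, at 479901 to 480229, with signal ratios of 11.7 in replicate 1 and 12.9 in replicate 3. This summit was the closest to the TSS, and none fell within the 250 bp that define a promoter here. A peak 2313 bp upstream had ratios of 3.70 in replicate 1 and 6.79 in replicate 3, the widest rise toward replicate 3 of the 23 summits with both values. A peak 4801 bp upstream had a ratio of 3.01 in replicate 3 and no matching region in replicate 1.

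Downstream of the cbt TSS, a peak at 774 bp lay in the 5′ UTR exon of the unspliced transcript and in an intron of the other transcripts. Its ratios were 5.0 in replicate 1 and 3.87 in replicate 3. The last cbt summit, 7251 bp downstream of the TSS and beyond the gene, fell in the promoter of CG4297, 237 bp from its TSS, with ratios of 8.85 in replicate 1 and 9.05 in replicate 3. Its nearest TSS was that of CG4297, which leaves 5 of the 6 summits nearer to the TSS of cbt than to that of any other annotated gene.

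The whole of cbt lies inside ush (476220 to 540560), which runs on the opposite strand and encodes a cofactor of GATA transcription factors. The 4 upstream peaks of cbt are therefore also in the body of ush, outside its exons, and the peak lists do not assign a peak to either gene. The body of ush held 14 thresholded summits, and the next one beyond the cbt window was 5003 bp from the cbt TSS. The TSS of cbt was 1401 bp from the strongest peak, against 4869 bp for the nearest TSS of ush.

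Placed among peaks that lie in an intron of any gene and outside all promoters, of which there were 1860, the strongest cbt peak had rank 3 by pooled signal. The measure of likeness was the mean percentile of signal in the 2 replicate lists, which was 99.99 for this peak. Only a peak in an intron of CG11050 stood above it by this measure, with ratios of 49.6 in replicate 1 and 58.1 in replicate 3. A peak at HmgZ and HmgD (34.6 in replicate 1 and 70.6 in replicate 3) was level with the cbt peak, both at 99.993. By pooled signal it stood above, at rank 3 of the pooled list. The next ones below lay at Lk6, which encodes a kinase that acts on translation (28.1 and 37.4 in the same order), and at ph-p, a Polycomb group gene (28.8 and 35.5). These peaks were picked for their closeness to the cbt peak, so their values are a description. Of the 10 genes with the counts of cbt (0 promoter, 0 intronic and 4 distal summits), Tsen34 had the strongest peak nearest in mean percentile, at 99.92, followed by Paics at 99.79 and Acsf3 at 98.96.

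The Fos gene kay (FBgn0001297, chromosome 3R, 29765995 to 29794113, plus strand) has 4 TSSs and had 5 summits in a window of 38.1 kb. A promoter summit stood 176 bp downstream of the TSS second from the 5′ end, with signal ratios of 4.72 in replicate 1 and 4.49 in replicate 3. Another stood 35 bp downstream of the third TSS, with 2.73 in replicate 1 and 2.30 in replicate 3. The first and the fourth TSS had no thresholded summit within 250 bp, so 2 of the 4 start sites were marked, both internal to the gene.

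The strongest kay peak was intronic, 1073 bp downstream of the TSS second from the 5′ end (29773921 to 29774072), with ratios of 4.23 in replicate 1 and 7.56 in replicate 3 (5.90 ± 2.36, SD, n = 2). It had rank 912 in the pooled list. The replicates differed on whether it exceeded the neighbouring promoter peak: replicate 1 had the intronic peak lower and replicate 3 had it higher. An intronic peak 1019 bp upstream of the same TSS had a ratio of 3.14 in replicate 1 and no match in replicate 3. The fifth, 1794 bp upstream of the third TSS, was 363 bp from the TSS of fig, a gene nested in a kay intron, with 2.54 in replicate 1 and 1.23 in replicate 3.

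The Jun gene Jra (FBgn0001291, chromosome 2R, 10096480 to 10098556, plus strand) had 3 summits in its 12.1 kb window and none at either of its 2 TSSs. All 3 lay downstream of Jra at 14-3-3zeta, which encodes a phosphoserine-binding adaptor protein. The strongest was 38 bp from a TSS of 14-3-3zeta and also within 250 bp of RpLP0-like, with ratios of 6.40 in replicate 1 and 6.20 in replicate 3 (6.30 ± 0.141, SD, n = 2). The second was 144 bp from another 14-3-3zeta TSS, with 4.19 in replicate 1 and 3.34 in replicate 3, and the distal one 847 bp from a TSS of that gene had 3.44 and 4.74 in the same order. No Jra window summit had Jra as the gene of its nearest TSS. The pooled list held a region 9 bp from the second Jra TSS, of rank 8881 and below the threshold, with ratios of 1.76 in replicate 1 and 0.809 in replicate 3.

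The JNK phosphatase gene puc (FBgn0243512, chromosome 3R, 8105332 to 8122294, plus strand) had 9 summits in 27.0 kb, the highest count among the 7 genes. Its promoter summit lay 6 bp upstream of the TSS at the 5′ end, with a ratio of 4.20 in replicate 1 and 0.619 in replicate 3. As matched, this was the most discordant pair of all 23, but the replicate 3 region was a weak one of rank 24392. Replicate 3 also had a stronger region that overlapped the peak, with its summit 120 bp upstream of the TSS, outside the 100 bp allowed for a match, and a ratio of 2.22. That region had rank 6407 in replicate 3. With it the replicate 3 value stayed below the replicate 1 value, but the size of the gap depends on the matching distance. The second TSS of puc had no thresholded summit.

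Inside puc, 5 summits were intronic. They stood 3861 bp (3.52 in replicate 1, 3.59 in replicate 3), 6636 bp (2.77 and 3.80), 8960 bp (4.24 and 2.20), 13441 bp (3.20 and 3.91) and 13657 bp (2.46 and 2.17) downstream of the nearest puc TSS. All were below the strongest peaks of cbt and Atf3 in both replicates, and the best of their ranks in the pooled list was 2733. The last 2 regions overlapped each other, and the one at 6636 bp was in an exon of lncRNA:CR44331, a non-coding gene inside puc. A further summit was in the promoter of that non-coding gene, with 2.25 in replicate 1 and 3.69 in replicate 3.

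Past the 3′ end of puc, a summit 332 bp from the TSS of CG7878 had ratios of 2.83 in replicate 1 and 4.70 in replicate 3. The strongest peak of the window by pooled signal was in the promoter shared by Arl8, which encodes a small GTPase of lysosomes, and CG9667, with 3.18 in replicate 1 and 5.11 in replicate 3 (4.15 ± 1.36, SD, n = 2). The promoter summit of puc was the only one in this window whose nearest annotated TSS was a puc TSS.

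The gene Atf3 (FBgn0028550, chromosome X, 1242740 to 1275284, minus strand) had 2 summits in a window of 42.5 kb, both upstream of its TSS. The promoter peak, 220 bp upstream of the TSS at 1275293 to 1275708, had rank 34 in the pooled list. Its ratio was 18.2 in replicate 1 (rank 43) and 29.4 in replicate 3 (rank 24), or 23.8 ± 7.95 (SD, n = 2). It was the strongest promoter peak of the 7 genes, above the kay and puc promoter peaks in both replicates. The other summit, 1906 bp upstream, had ratios of 5.09 in replicate 1 and 6.45 in replicate 3, and the nearest TSS of another gene, CG32812, was 10100 bp away. The transcribed body of 32.5 kb held 0 thresholded summits and 22 weaker regions of the pooled list.

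Neither Hr38 nor sr had a thresholded summit. Hr38 (FBgn0014859, chromosome 2L, 20683462 to 20714588, minus strand) had no region of the pooled list or of either replicate list in its body of 31.1 kb. Among the 639 protein-coding genes at least as long, 18.6% had no pooled region in the body. Outside the body, a region 675 bp upstream of the TSS had rank 8340 in the pooled list, with ratios of 1.45 in replicate 1 and 2.18 in replicate 3. The region of Hr38 with the highest pooled signal, of rank 7728, had ratios of 1.84 in replicate 1 and 1.67 in replicate 3 and was near the TSS of another gene, past the 3′ end of Hr38.

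The EGR gene sr (FBgn0003499, chromosome 3R, 18090803 to 18135583, plus strand) had the longest window, 54.8 kb. Its strongest pooled region, of rank 9540, lay 584 bp upstream of the TSS at the 5′ end, with ratios of 1.29 in replicate 1 and 1.52 in replicate 3. A region 7 bp upstream of the second TSS had rank 11437, with 1.48 in replicate 1 and 0.957 in replicate 3. These values fell between the 47.8 and 67.3 percentiles of the replicate lists, near their middle. Replicate 3 alone held a stronger region, 3182 bp downstream of the second TSS, with a ratio of 3.03 and rank 4164, which had no counterpart within 100 bp in replicate 1. A missing summit says that no region passed the threshold in these lists of mixed tissues; the read depth is unknown, and the number of replicates limits the precision.

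**Figure D2:**
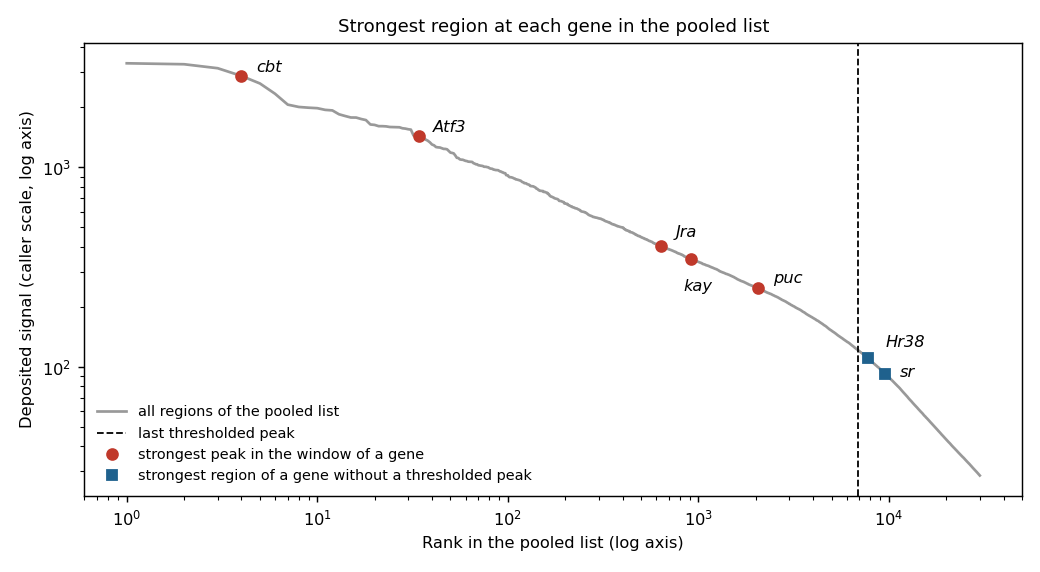
Deposited signal of the pooled list against rank, both on log axes, with the strongest thresholded peak in the window of 5 genes (circles) and the strongest region of Hr38 and sr (squares). The dashed line marks the last of the 6844 thresholded peaks. On it, cbt is at rank 4 and Atf3 at rank 34, and past the line lie Hr38 at rank 7728 and sr at rank 9540, which the log axis brings close to it.

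At the edge of the threshold, whose lowest pooled signal was 122, the weakest member inside was the kay peak next to fig, with a signal of 125 and rank 6593. The strongest regions outside were in cbt (signal 116, rank 7291), puc (116, rank 7298), Hr38 (111, rank 7728) and Atf3 (110.5, rank 7751). Values next to a cut in a ranked list are close by construction. Within each gene, the weakest thresholded signal and the strongest outside were 125 and 93.4 at kay and 141 and 116 at puc. They were 224 and 116 at cbt, 227 and 98.9 at Jra and 352 and 110.5 at Atf3. The strongest region of sr had a signal of 92.7.

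Across the 7 genes, 3 had a summit in a promoter of their own (kay, puc and Atf3), and 32.8% of 13945 protein-coding genes did. With promoters of 100 bp, kay and puc kept a promoter summit and Atf3 did not, since its peak is 220 bp from the TSS. A region of the full pooled list, thresholded or not, lay within 250 bp of a TSS of kay, Jra, puc, Atf3 and sr, 5 of the 7, and of 54.6% of protein-coding genes. A summit in the gene body plus 5 kb was found at 5 of the 7 and at 65.6% of protein-coding genes. Windows of the members were long, with a median of 38.1 kb against 12.2 kb for all genes. Of the 714 genes with windows of at least 38.1 kb, 72.1% had a summit. The share of members with any summit was near this background, and with 7 genes neither share sets the group apart.

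The 7 windows held a median of 3 summits and a mean of 3.57, against a median of 1 and a mean of 1.48 for all protein-coding genes and a median of 2 and a mean of 2.61 for the 714 long windows. The counts were uneven. As many as the 9 summits of puc were found at 44 genes, 0.316% of all, and as many as the 6 of cbt at 273 genes, 1.96%. Per 10 kb of window, cbt had 4.53 summits, more than 99.5% of genes, and puc had 3.34, more than 96.6%. Jra had 2.48 per 10 kb, kay 1.31 and Atf3 0.470, while Hr38 and sr had 0. Because neighbouring genes are close, the nearest annotated TSS belonged to a member for 12 of the 25 summits: 5 for cbt, 4 for kay, 2 for Atf3, 1 for puc and 0 for Jra.

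**Figure D3:**
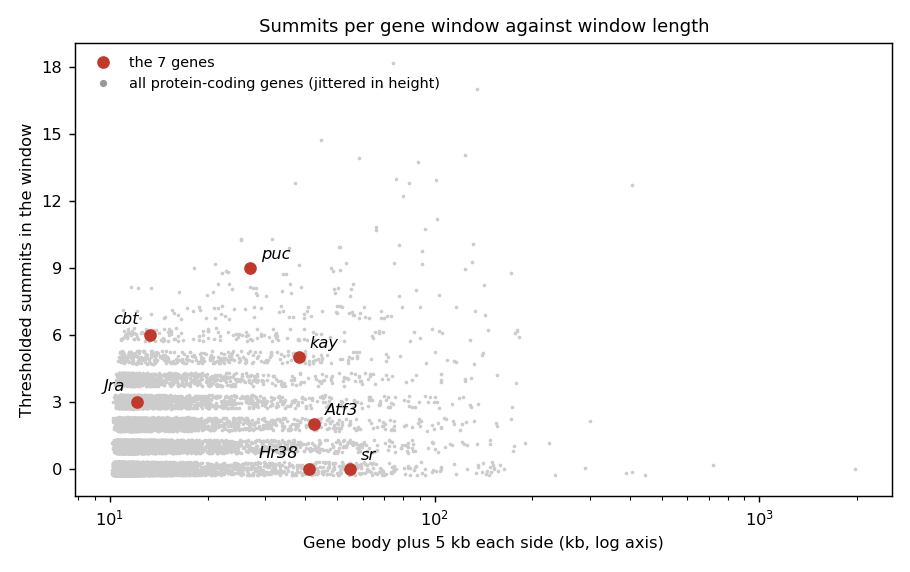
Number of thresholded summits per gene window (vertical axis) against window length in kb (log axis) for the 7 genes (red, labelled) and all protein-coding genes (grey, jittered in height). At 13.2 kb cbt holds 6 summits and at 27.0 kb puc holds 9, while Hr38 and sr hold 0 in windows of 41.1 kb and 54.8 kb.

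The replicates placed most summits at the same position. Of the 23 found in both, 16 were within 30 bp of the summit in each replicate. Over all matched summits the median shift was 12 bp and the largest 92 bp, at the puc promoter. The signal ratio was higher in replicate 3 for 14 of the 23 summits found in both. Its quotient, replicate 3 over replicate 1, had a median of 1.10 and ranged from 0.147 at the puc promoter to 1.84 at cbt. The value of 0.147 depends on the matching distance, which left out a stronger replicate 3 region at the puc promoter. Over all 6443 thresholded peaks found in both replicates (94.1% of 6844) the median was 1.18, with quartiles of 0.891 and 1.53, and 11 of the 23 were above that median. The mean ratio of member summits had a median of 4.09, against 3.17 for all thresholded peaks, with 18 of the 23 above 3.17. This set was chosen with cbt in view, and no test was made.

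**Figure D4:**
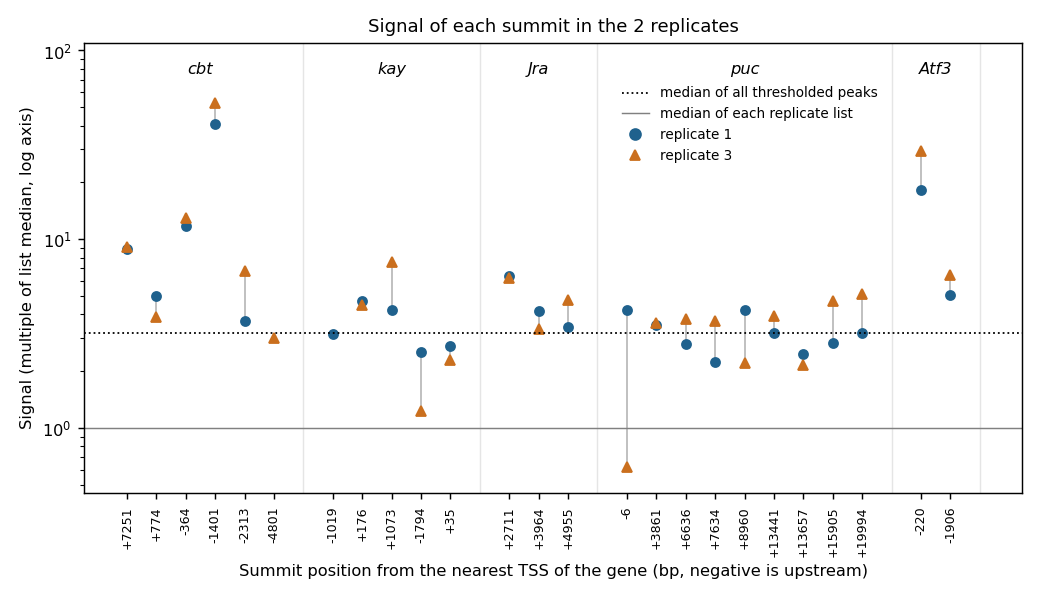
Signal ratio (multiple of the list median, log axis) of the 25 summits in replicate 1 (circles) and replicate 3 (triangles), labelled by distance in bp from the nearest TSS of the gene. The cbt peak at -1401 and the Atf3 peak at -220 are high in both replicates, and 2 summits have a value in 1 replicate only. The puc promoter at -6 is discordant as matched within 100 bp, which leaves out a stronger replicate 3 region.

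Letters under the summits were searched on both strands within 100 bp. AP-1 (TGANTCA) was matched at 1 of the 25 summits, 4.00%, the puc intronic peak at 13441 bp shown above, and at 4.43% of all thresholded peaks and 3.79% of promoters. The gene puc is a known AP-1 target in flies, but the share of summits with a match was near that of all peaks. Whether AP-1 binds at this match was not tested. GAGA factor letters (GAGAG) were at 10 summits, 40.0%, against 25% of all peaks, 28.4% of the 2840 peaks outside promoters and 25% of the 19252 annotated promoters. The kay promoter summit at 176 bp held 9 matches, the most of the 25, with overlapping matches counted separately. Those at -5 and -3 bp from the summit overlapped, as did those at 5, 7, 9 and 11 bp.

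BEAF-32 letters (CGATA) were at 9 summits, 36.0%, against 39.9% of all peaks, 27.3% of peaks outside promoters and 37.1% of promoters. The DRE (TATCGATA), which contains CGATA, was at 1, 4.00%, the Arl8 and CG9667 promoter in the puc window. It was at 7.26% of all peaks, 0.880% of peaks outside promoters and 6.45% of promoters. HSF letters (GAANNTTC) were at 3 summits, 12.0%, against 5.07% of all peaks and 6.66% of promoters. GATAA was at 9, 36.0%, against 45.4% of all peaks and 39.7% of promoters, and TATAAA was at 6, 24.0%, against 28.1% and 26.9%. KLF letters (GGGCGTG), the family motif of the cbt protein, were at 1 summit, in kay, 4.00% against 1.33% of all peaks and 1.06% of promoters. Peaks outside promoters held AP-1 and HSF letters at 4.93% each, GATAA at 46.2%, TATAAA at 29.3% and KLF letters at 1.83%.

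No summit held CRE (TGACGTCA), Zelda (CAGGTAG), NR4A (AAAGGTCA) or EGR (GCGTGGGCG) letters, which were at 0.424%, 0.847%, 0.336% and 0.0584% of all peaks and at 0.275%, 1.08%, 0.384% and 0.119% of promoters. GATAA and CGATA can share letters. These matches are descriptions of letters in a window and not of bound sites. The G+C content of the 25 windows had a median of 43.3% and ranged from 25.4% at the Arl8 and CG9667 promoter to 62.7% at the kay promoter, against a median of 38.8% for all peaks. It was 39.8% at the strongest cbt peak and 39.3% at the Atf3 promoter.

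Genes of the surrounding pathways were read from lists chosen by function. A promoter summit was present at 3 of the 7 genes, against 42 of the 76 related genes (55.3%) and 32.8% of all protein-coding genes. A summit in the window was present at 5 of the 7, against 65 of the 76 and 65.6% of all protein-coding genes. The related genes were not matched to all genes for window length or number of TSSs. The gene Atf-2 is in 2 of the lists. In JNK signalling, 7 of 14 genes had a promoter summit. Genes are named in order of the mean percentile of their strongest promoter peak, with its mean signal ratio. The first was Mkk4, a kinase that activates JNK (17.6 ± 4.81, SD, n = 2, nearest to the TSS of SLIRP2), followed by Traf6, an adaptor of the pathway (5.16 ± 2.74), and msn, an upstream kinase (3.00 ± 0.492), level with Mekk1 (3.01 ± 0.599). The JNK gene itself, bsk, had a promoter peak of 1.95 ± 0.668. In p38 and ERK signalling, 7 of 10 genes had one, led by p38a (7.0 ± 4.89), Raf (5.02 ± 2.17) and Mkp3, an ERK phosphatase (3.14 ± 0.345).

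Among the other bZIP factors, 9 of 17 had a promoter summit, led by REPTOR, a factor restrained by TOR signalling (14.6 ± 2.73, SD, n = 2), Irbp18 (9.06 ± 1.94, nearest to the TSS of APP-BP1) and Xbp1, a factor of the unfolded protein response (7.49 ± 1.54). In the KLF and SP family of cbt, 2 of 6 had one, Spps (3.96 ± 0.0797, nearest to the TSS of CG13609) and btd (2.63 ± 1.90). Of the nuclear receptors other than Hr38, 11 of 20 had one, led by Hr96, a receptor of foreign compounds (13.4 ± 2.91), Eip75B, an ecdysone-induced gene (7.69 ± 1.52), and ftz-f1 (6.14 ± 0.349, nearest to the TSS of lncRNA:CR45939). Of 10 other stress factors, 7 had one, led by p53 (3.67 ± 0.566), the hypoxia factor sima (3.36 ± 0.302) and the metal-responsive MTF-1 (3.01 ± 0.435). None of these promoter peaks reached the 23.8 ± 7.95 of Atf3 in mean signal ratio.

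**Figure D5:**
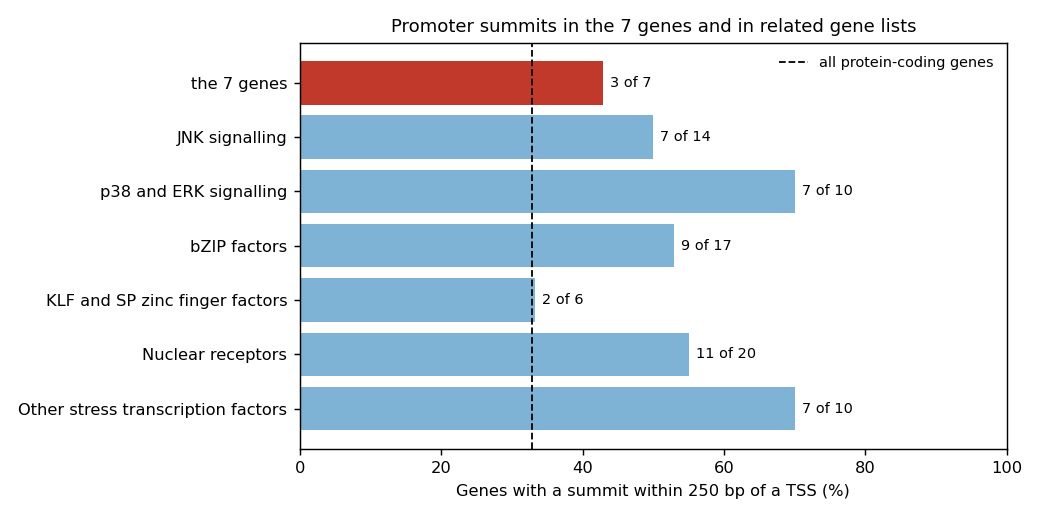
Percentage of genes with a thresholded summit within 250 bp of a TSS, for the 7 genes (red, top) and 6 related lists (blue), with the count beside each bar; the dashed line is the 32.8% of all protein-coding genes. The bars run from 33.3% in the KLF and SP list to 70.0% in 2 lists, with 42.9% for the 7 genes.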

How the data were processed

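Peak lists from 2 biological replicates were used: 30000 regions per replicate, 30000 from the pooled reads and the 6844 that passed the IDR threshold, all on dm6 per the labels. Both replicates were called with the same control, according to notes deposited with the lists. Which aligner and which caller were run is not given in the sources used here. The signal of each region is the value deposited by the authors; it has no stated unit and differs in scale between lists, so it was divided by the median of its list. Read depth is unknown.

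Summits were placed against the Ensembl 115 annotation on 6 arms, with transposable elements and pseudogenes left out. The gene coordinates were compared with the RefSeq table of the same assembly, and 99.9% of protein-coding genes, all 7 members included, had the same start and end. Each summit took the first class that applied among own promoter, another gene's promoter, exon, intron and distal. With 1 group and 2 replicates no test was made, and percentages over all protein-coding genes stand as background.

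The members, related lists, motifs and alternatives were chosen with earlier results of these data known. Named were the 7 genes with every summit, the genes that hold or adjoin those summits, up to 3 intronic peaks on each side of the strongest cbt peak, 3 genes with the counts of cbt, and up to 3 bound genes of each related list by mean percentile. The genes bsk and Mekk1 were added once their values were known. The alternatives were stricter sets, single replicates, other promoter, window and matching distances and another scaling. The functions were checked on simulated data. Software was Python 3.11.15 with numpy 2.4.6, pandas 2.3.3 and matplotlib 3.10.9.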

Additional observations from a re-analysis of the deposited data

How the results depend on the processing

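Of 78 recalculations of 12 results, 60 stayed within the replicate spread or within 1.5 times the count. With 2 replicates, either value alone always lies within the SD of their mean. The signal recalculations on 1 replicate could therefore only stay, and they tell nothing about stability. The kay peak at a matching distance of 50 bp kept replicate 1 only (4.23) and was also counted as staying. In the upper part of the thresholded set, split at the median signal, the 7 windows kept 18 of the 25 summits, at 5 genes. Distal summits stayed at 7, promoter summits were 2 in place of 4 and intronic ones 4 in place of 8. Related genes with a promoter summit numbered 21 in place of 42. A smaller set lowers counts by construction, and the share of all protein-coding genes was not computed for it. With promoters of 100 bp, there were 2 promoter and 11 distal summits and 23 related genes; with 1000 bp, 4 distal summits were left of 7. Genes with a promoter summit numbered 2 of the 7 at 100 bp, without Atf3, against 21.6% of all protein-coding genes, and 4 of the 7 at 500 bp, with cbt added, against 37.1%. In the upper part of the set they numbered 2, without puc.

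Gene bodies alone left 3 genes with a summit and 12 summits, with 0 distal ones by definition. Flanks of 2 kb gave 4 distal summits and flanks of 10 kb gave 12. The share of all protein-coding genes with a summit was not computed for these windows. Counting only summits whose nearest TSS is that of a member, an alternative chosen after seeing the data, left 12 of the 25. Scaling to the median of the 6844 strongest regions of each list gave 14.6 for the strongest peak of cbt, 7.35 for Atf3, 1.99 for Jra, 1.81 for kay and 1.28 for puc, lower by construction.

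Leaving out 1 replicate meant taking the 6844 regions of highest signal in the list of the other, without an IDR threshold. Without replicate 1, summits were found at 7 of the 7 genes, Hr38 and sr with 1 each, against 5 of the 7 without replicate 3. The regions of Hr38 and sr had ranks 6563 and 4164 in replicate 3. The share of all protein-coding genes with a summit was not computed for these sets. With 1 replicate at a time, the summits numbered 26 to 27, promoter summits were 4, intronic ones 8 to 9 and distal ones 7 to 9, the genes with a promoter summit 3, and the related genes 38 to 43. The strongest peak ranged from 40.6 to 52.9 for cbt, from 4.23 to 7.56 for kay, from 6.20 to 6.40 for Jra, from 3.18 to 5.11 for puc and from 18.2 to 29.4 for Atf3. No paired analysis was possible because there was 1 group.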
